A study of Mus musculus with 11 samples.

Results

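Glycinergic neurons release glycine onto their targets and were followed here outside the Golgi class, the glycinergic interneurons of the cerebellar granular layer. The data are single-nucleus RNA sequencing libraries of mice, each made from pooled cerebellum, cervical cord and the brainstem of 1 hemisphere. Il12rb2 encodes a signalling chain of the interleukin-12 receptor, and the study asked what its loss from the neural lineage changes at the onset of experimental autoimmune encephalomyelitis (EAE), in which mice immunized with a myelin peptide develop central nervous inflammation. Nuclei were counted as members when they held at least 1000 genes, less than 5% mitochondrial unique molecular identifiers (UMIs), at least 2 UMIs of the glycine transporter gene Slc6a5, at most 1 UMI of the Golgi cell gene Lgi2 and none of Tfap2b. They also had to hold at most 1 UMI of the glutamate transporter gene Slc17a6, at most 1 of the myelin genes Mog and Mag together, and less than 0.2% of their UMIs from the granule and unipolar brush cell genes Gabra6, Fat2, Chn2 and Etv1. These limits kept 1567 of 157612 nuclei of sufficient quality, or 0.994%. The 10 genes used to choose the nuclei are therefore not results.

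All mice were males of 8 to 12 weeks and carried loxP-flanked Il12rb2 alleles on both chromosomes (Il12rb2fl/fl), controls included. The NestinCre/+Il12rb2fl/fl mice also carried a Cre recombinase driven by Nestin, a gene of neural stem cells, so the deletion reaches neurons and glia alike and was not restricted to glycinergic neurons. Mice with Cre and an intact receptor gene were not part of these libraries. EAE was induced with 200 μg of a myelin oligodendrocyte glycoprotein peptide in complete Freund's adjuvant and 50 to 100 ng of pertussis toxin, and tissue was taken at day 10. There were 4 libraries of immunized Il12rb2fl/fl mice (fl EAE), 4 of immunized NestinCre/+Il12rb2fl/fl mice (NestinCre EAE), 2 of non-immunized Il12rb2fl/fl mice (fl naive) and 1 of a non-immunized NestinCre/+Il12rb2fl/fl mouse (NestinCre naive), which has no replicate. Replicates 1 to 3 of both EAE groups were sequenced in run 1, replicate 4 of both and fl naive 2 in run 2, and fl naive 3 and NestinCre naive 2 in run 3.

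Glycine is the main fast inhibitory transmitter of the brainstem and spinal cord. Glycinergic neurons take it up with the transporter encoded by Slc6a5, load it into vesicles with the transporter encoded by Slc32a1, which also carries GABA, and many of them release both transmitters. Their targets respond through chloride channels assembled from glycine receptor subunits, which are anchored at synapses by gephyrin. Such neurons are known for reciprocal inhibition in motor circuits and for inhibition in auditory and vestibular nuclei and in the cerebellar nuclei.

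The 11 libraries held 13120 to 22951 barcodes and 40761007 to 86063464 UMIs. The fl EAE libraries 1 to 4 gave 113, 164, 167 and 80 members and the NestinCre EAE libraries 118, 106, 106 and 265. The fl naive libraries 2 and 3 gave 207 and 122 members, and the NestinCre naive library gave 119. They were deep nuclei, with a median of 11968 UMIs and 4360 genes, and 90.2% of them held 6000 UMIs or more. The paper names a limit of 6000 UMIs among its quality filters, so many members may lie outside the nuclei it analysed. Summed over a library the members gave 1293980 to 3591543 UMIs. No member barcode was shared between libraries, whereas pairs of libraries shared 47 to 140 of all their barcodes. The library fl EAE 4 stood apart with the fewest members and with 18.8% of them in 1 sub-cluster that held 1.20% to 6.60% of the members elsewhere. Values below are counts per 1000000 UMIs (CPM) of the summed members of a library, and CPM of different genes are not compared, because intronic reads accumulate with gene length.

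The members carried the transcripts of inhibitory neurons. The vesicular transporter Slc32a1 stood at 37.9 ± 7.49 CPM (SD, n = 11), with 26.8 in the lowest and 53.1 in the highest library. Gad1 and Gad2, the enzymes that make GABA, stood at 89.7 ± 15.8 and 141 ± 17.5 CPM. In all other nuclei of sufficient quality, Golgi cells included, they stood at 63.8 ± 6.12 and 54.6 ± 8.77 CPM. In every library Slc32a1, Gad1 and Gad2 were higher in the members than in those nuclei. Slc17a7, a glutamate transporter of granule cells that the gate did not use, stood at 13.9 CPM against 113 CPM. The limit on granule cell genes removes such cells from the members, so this value does not check the label. Dlx2, a marker of forebrain inhibitory neurons, was at 0 in every library. The levels of Slc32a1, Gad1 and Gad2 thus matched the label of inhibitory neurons.

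At the edge of the gate, 591 members held exactly 2 Slc6a5 UMIs, and 1283 nuclei that met all other limits held 1. Over the libraries, the median share of nuclei with a Gad1 or Gad2 UMI was 63.8% just outside and 85.0% just inside. At 3 or more Slc6a5 UMIs it was 81.5%. The median depth was 6661.5, 9387.5 and 13602 UMIs in the same order, so the share did not rise with depth throughout. Levels per UMI differed in direction between genes. Gad1 stood at a median of 115 CPM outside, 94.7 CPM at 2 Slc6a5 UMIs and 80.3 CPM at 3 or more, Gad2 at 151, 154 and 128 CPM, and Slc32a1 at 37.0, 39.1 and 36.7 CPM. Glra1 stood at a median of 192 CPM outside, 247 CPM at 2 Slc6a5 UMIs and 280 CPM at 3 or more. The median share of nuclei with an Slc17a7 UMI was 15.5% outside, 14.9% at 2 Slc6a5 UMIs and 17.8% at 3 or more. These values describe the limit and were not tested.

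The members differed from the nuclei around them in receptors and in transcription factors, which is given as a description because the nuclei were chosen on their transcripts. Ratios are of mean CPM over the 11 libraries with 5 CPM added to both sides. Against all other nuclei the 6 highest ratios belonged to Pax8 (6.34), Pax2 (5.46), Lamp5 (5.25), Htr2c (4.82), Sv2c (4.71) and Glra1 (4.19). Pax2 and Pax8 encode transcription factors of inhibitory precursors in the hindbrain and cord, Htr2c a serotonin receptor, Sv2c a synaptic vesicle protein and Glra1 the main adult subunit of the glycine receptor. The 6 lowest ratios belonged to Prr5l (5.88 against 325 CPM), St18 (31.1 against 667 CPM), Cdh19, Sec14l5, Bcas1 and Tmem163. St18 and Bcas1 are genes of oligodendrocytes, cells that the limit on Mog and Mag removes.

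Glycine receptor genes were measured in the glycinergic neurons themselves. Glra1 stood at 276 ± 34.8 CPM in the members and at 62.2 ± 12.5 CPM in all other nuclei, and Glra3, another alpha subunit, at 59.8 ± 7.73 against 28.2 ± 9.20 CPM. The beta subunit gene Glrb and the gephyrin gene Gphn were at similar levels in both, with ratios of 1.19 and 0.883. Among the GABA-A receptor genes, Gabra2, Gabra3, Gabra5, Gabrb1 and Gabrg3 were higher in the members in 11 of 11 libraries, with Gabrg3 at 666 ± 90.8 against 213 ± 56.8 CPM. Gabrd, a subunit gene abundant in cerebellar granule cells, was lower in 11 of 11, at 11.2 ± 3.97 against 104 ± 21.7 CPM. Of the excitatory receptor genes, Grm5 (1307 against 475 CPM) and Gria1 (473 against 181 CPM) were higher in 11 of 11 libraries, and Gria4 was lower in 11 of 11. Of the potassium channel genes of fast-firing neurons, Kcnc2 was higher (458 ± 64.0 against 163 ± 44.4 CPM), whereas Kcnc1 was lower, each in 11 of 11 libraries.

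Nuclei of the Golgi gate, which held at least 2 Slc6a5 and at least 2 Lgi2 UMIs, were the other glycinergic class compared. When they were further required to hold Tfap2b, the gene whose absence is part of the members' definition, Col23a1 was 15.2 times, Scrg1 and Kcnn3 were each 14.9 times and Pdgfd was 13.8 times higher in the Golgi nuclei by the same ratio. Kcnn3 encodes a calcium-activated potassium channel. Grm2, a glutamate receptor that marks Golgi cells, stood at 1.56 ± 0.848 CPM in the members and at 57.3 ± 36.5 CPM in those Golgi nuclei. In the other direction the ratios were 5.95 for Pde1a, a phosphodiesterase gene, 5.40 for Kcnc2, and 5.30 and 4.00 for the transcription factor genes Foxp2 and Meis2. Hox genes, which pattern the hindbrain and cord and are largely silent in the cerebellum, summed to 170 to 268 CPM per library in the members against a mean of 64.1 CPM in all other nuclei. The Hox sums of the Golgi gate without the Tfap2b requirement averaged 186 CPM.

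The members were not 1 cell type. Clustering of the 1567 nuclei gave 17 sub-clusters of 17 to 194 nuclei, which are called by number because they were not named from markers set for such types. Their leading genes are the genes that formed them and are not findings. The leading genes of sub-cluster 1 included the transcription factor gene Zfhx3, those of sub-cluster 4 Mecom and Onecut2, and those of sub-cluster 5 Ebf1 (1868.5 CPM against a mean of 321 CPM in the others). Sub-cluster 10 led with Gli3 and Gata3, and sub-cluster 11 with Rorb (1361 against 38.3 CPM). Sub-cluster 12 led with Ttn and combined Gata3 at 61.7 CPM with Pax2 at 3.43 CPM and a Hox sum of 30.9 CPM. In the other 16, Pax2 ran from 21.2 to 389 CPM.

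Sub-cluster 13 led with Kit, a receptor tyrosine kinase gene, and had the lowest Hox sum, 14.3 CPM, with Aldh1a3 at 41.4 CPM and Pax8 at 0. It was the sub-cluster in which fl EAE 4 was enriched, with 15 of its 80 members. Its leading genes also held the globin genes Hbb-bs and Hba-a1. At the other end, sub-clusters 14 and 15 had Hox sums of 425 and 541 CPM. The GABA enzymes varied too. Gad1 ran from 21.0 CPM in sub-cluster 8 to 220 CPM in sub-cluster 14, whereas Slc32a1 stayed between 21.2 and 49.3 CPM in all 17. Sub-cluster 8, at 21.0 CPM of Gad1 and 38.7 CPM of Gad2, had the lowest levels of both among the 17.

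Mixed nuclei were sought in the same clusters. Among the members, 95 nuclei (6.06%) were in the share with the highest doublet scores of their library. That share was 20.9% in sub-cluster 2, which led with Tmem163, Il16 and the granule cell gene Reln, and 52.9% in sub-cluster 17, whose 17 nuclei held the Purkinje cell genes Ryr1, Car8 and Itpr1 among their leading genes. The counts of called genes given below were repeated without these 2 sub-clusters, an alternative chosen after seeing the data.

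**Figure D1:**
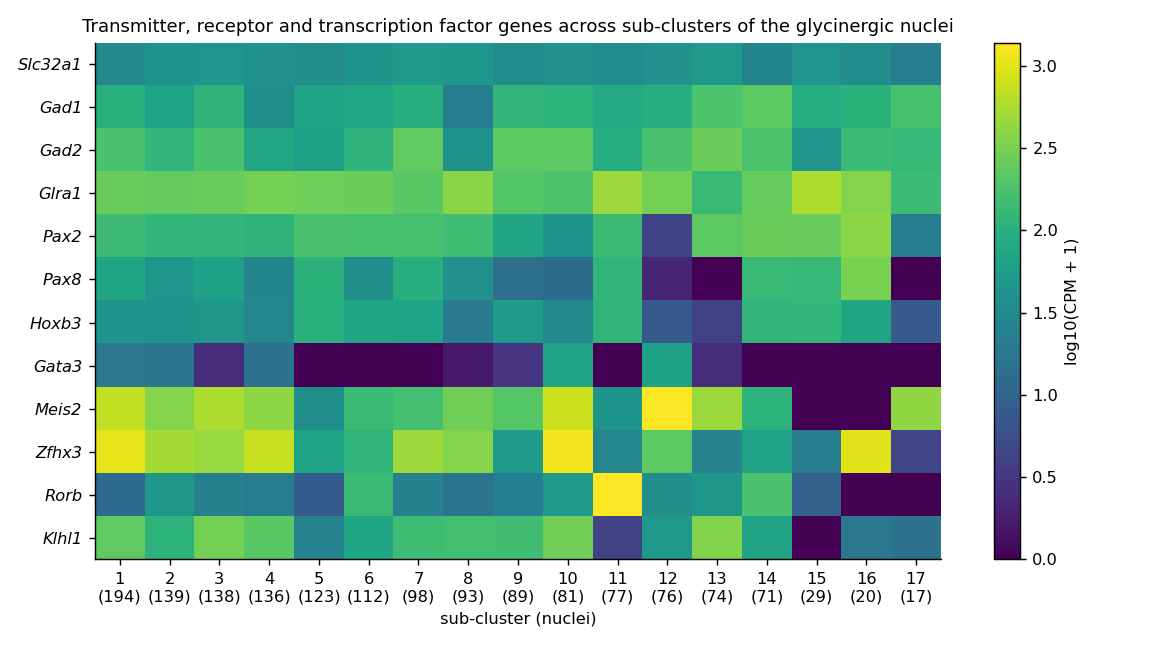
Levels of 12 genes (rows) in the 17 sub-clusters of the glycinergic nuclei (columns, with the number of nuclei), as log10 of CPM plus 1 in the summed nuclei of each sub-cluster. Glra1 and Slc32a1 were present in all 17, Rorb was concentrated in sub-cluster 11, Gata3 was highest in sub-clusters 10 and 12, and Gad1 was lowest in sub-cluster 8.

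The first comparison asked whether the share of glycinergic nuclei differed between groups. Of the nuclei of fl EAE 1 to 4 the members made up 0.900%, 1.13%, 1.15% and 0.461%, and of those of NestinCre EAE 0.940%, 0.877%, 1.04% and 1.40%. The naive shares were 1.29% and 0.803% for the fl libraries and 0.868% for the NestinCre library. The exact 95% intervals of single libraries, which cover counting error only, were 0.366% to 0.573% for fl EAE 4 and 1.23% to 1.57% for NestinCre EAE 4, which both came from run 2 and were the lowest and the highest of the 11. Within fl EAE the interval of fl EAE 2 was 0.963% to 1.31%, apart from that of fl EAE 4, and within NestinCre EAE that of NestinCre EAE 2 was 0.719% to 1.06%, apart from that of NestinCre EAE 4.

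The mean share was 0.910% ± 0.320 in fl EAE and 1.06% ± 0.232 in NestinCre EAE (SD, n = 4 each). The difference of 0.154 percentage points was smaller than the spread between libraries (two-sided exact permutation test over 70 assignments, p = 0.543, smallest possible p 0.0286). Within run 1 alone the difference was -0.106 points (exact permutation, p = 0.3, where 3 against 3 cannot go below 0.1). EAE and naive libraries differed by -0.00042 points (exact permutation, p = 1). Only run 2 held libraries of both states, so run and state cannot be told apart in this test of EAE against naive. The run 2 shares were 0.461% and 1.40% in fl EAE 4 and NestinCre EAE 4 and 1.29% in fl naive 2. The tissue was dissected and the nuclei were gated on UMIs. A share can thus move with the dissection and with depth, which were not tested as causes. Nuclei of at least 1500 UMIs were also thinned to 1500 UMIs before gating, with shallower nuclei left out. The share was then 0.111% in fl EAE and 0.165% in NestinCre EAE (p = 0.229, same exact test). It rested on 9 nuclei in NestinCre EAE 2, the fewest, and 42 in NestinCre EAE 4, the most. Thinning also lowers the counts of Lgi2 and Tfap2b, so Golgi nuclei could then meet the limits.

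**Figure D2:**
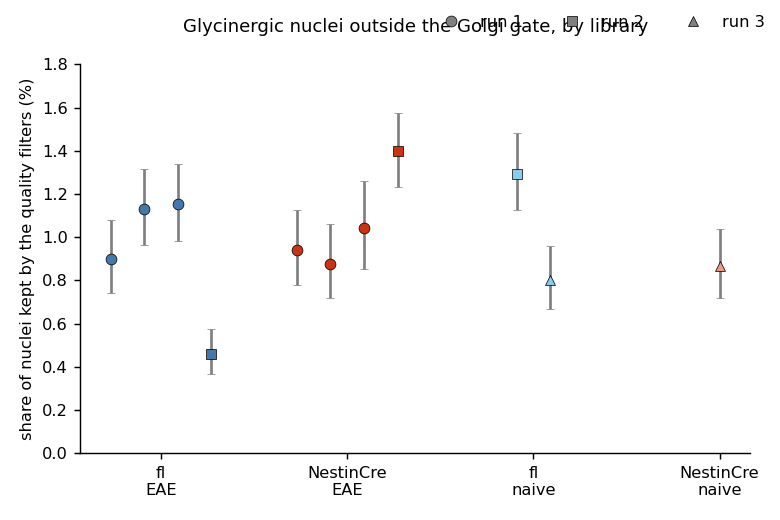
Share of nuclei that met the limits for glycinergic nuclei outside the Golgi gate (vertical axis, percent) in each of the 11 libraries, by group; bars are exact 95% intervals and symbols give the sequencing run. The EAE groups overlap, and fl EAE 4 (0.461%) and NestinCre EAE 4 (1.40%) lie at the ends.

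The second comparison asked which genes differed with genotype in the glycinergic nuclei of mice with EAE. Of 11063 genes tested 2 passed and both rose (0.0181%, edgeR quasi-likelihood test with sequencing run in the model, Benjamini-Hochberg adjusted p under 0.05). B2m, which encodes the light chain of MHC class I molecules, is described here. DESeq2 on the same genes also called 2.

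B2m (ENSMUSG00000060802, chr2:121977957-121983594, plus strand, GRCm39) stood at 3.58, 2.35, 3.95 and 4.64 CPM in fl EAE 1 to 4 and at 21.8, 8.35, 20.4 and 25.9 CPM in NestinCre EAE 1 to 4. The naive libraries held 3.06, 3.84 and 5.13 CPM. The 4 NestinCre EAE libraries lay above the other 7, with NestinCre EAE 2 the lowest of the 4. The means were 3.63 ± 0.961 and 19.1 ± 7.55 CPM (SD, n = 4 each). The fitted log2 fold change was 2.38 with SE 0.329 (edgeR adjusted p = 0.00317). Leaving out each EAE library in turn gave log2 fold changes of 2.21 to 2.61, and the call held each time. These levels are low in counts, since 1 UMI was worth under 1 CPM in every library.

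The sequence before the start of B2m is shown because interferon-activated factors are known to bind such promoters. It is taken from the RefSeq promoter table on GRCm38.p6 (chr2:122147437-122147686, plus strand, the 250 bases before the gene start), and capitals mark the match to GAAA, any 2 bases and GAAA again, the letters of an interferon-stimulated response element.
B2m promoter: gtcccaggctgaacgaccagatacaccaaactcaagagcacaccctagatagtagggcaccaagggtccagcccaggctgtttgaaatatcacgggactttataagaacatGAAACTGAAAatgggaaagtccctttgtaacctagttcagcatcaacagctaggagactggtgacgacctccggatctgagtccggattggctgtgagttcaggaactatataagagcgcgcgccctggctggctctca
The match starts 139 bases before the gene start. Both strands were searched, and 2.98% of the 32851 promoters of the table held a match in the same window. A match is a description of letters and not of binding.

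Other genes of MHC class I and the interferon response were counted by list. A list of 9 such genes taken from the study's text was chosen by the authors on these samples, so its direction is not independent evidence. All 9 had a higher mean in NestinCre EAE than in fl EAE, and in 4 all NestinCre EAE libraries lay above all fl EAE libraries. Over the 20610 genes with a UMI in the members such non-overlap occurred in 1.26% in the higher and in 1.01% in the lower direction. Of the 9, 3 had enough counts to be tested and 2 of them rose, which are the 2 calls of the whole comparison (0.0181% of the genes tested). H2-D1, a heavy chain gene of MHC class I, had a log2 fold change of 0.42 (edgeR adjusted p = 0.948, not called). The genes that passed the filter on counts could do so through the NestinCre libraries, so the tested genes are not a fair sample of the list.

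A further list held 75 interferon-stimulated genes found in the files, of which 71 had a higher mean in NestinCre EAE. For scale, 50.6% of the 11063 genes tested had a fitted log2 fold change above 0. That share is of fitted changes in genes that passed the filter on counts. The 71 were counted on mean CPM, with genes below the filter included, so measure and set differ. This list too was chosen with earlier results of these data known, so its direction is not independent evidence. It also holds Cd74, H2-Aa and H2-Ab1, which are among the immune cell genes taken below. In 16 of the 74 with a UMI in the members all NestinCre EAE libraries lay above all fl EAE libraries, and in 0 of them below, against the shares of 1.26% and 1.01% just given. The test could be run for 12 of the genes. Of these 12, 5 did not overlap in the higher direction, where the 11063 genes tested did so in 1.37% in the higher and in 1.16% in the lower direction. None of the 12 was called by edgeR or by DESeq2 and 6 were higher at an unadjusted p under 0.05, as were 2.53% of the genes tested. Some of the 12 could pass the filter on counts through the NestinCre libraries, as Herc6 with 4 to 9 UMIs in each fl EAE library against 14 to 32 in each NestinCre EAE library, so counts over the 12 are a description and no support. The lowest p belonged to Herc6, an interferon-induced ubiquitin ligase gene, at 4.30, 4.22, 1.76 and 3.86 CPM in fl EAE and 11.8, 10.6, 10.6 and 8.91 CPM in NestinCre EAE (log2 fold change 1.60, edgeR adjusted p = 0.276). Rnf213, Eif2ak2, Stat2, Irgm1 and Irf9 followed, with log2 fold changes of 0.65, 0.94, 0.45, 1.31 and 0.47. Their naive levels differed from gene to gene. Eif2ak2, the gene of an interferon-induced kinase, stood at 3.58, 10.8, 10.5 and 4.64 CPM in the fl EAE libraries, at 13.7, 15.9, 13.6 and 16.7 CPM in those of NestinCre EAE, and at 20.7, 12.1 and 18.8 CPM in the naive libraries. The naive libraries overlapped NestinCre EAE and lay above fl EAE. Eif2ak2 had the lowest p of its list in EAE against naive, with a fitted log2 fold change of -1.33 (edgeR adjusted p = 0.426, not called). In that comparison 14 of 22 tested genes of this list were above 0 and 8 below. Of the list of 9 genes from the study's text, all 7 tested genes were above 0, against 51.2% of all genes tested. Here too genes could pass the filter on counts through the NestinCre EAE libraries. H2-K1 did so with 21, 12, 6 and 82 UMIs there, against 0, 3 and 0 in the naive libraries. The counts above and below 0 are therefore a description and no support. The naive libraries held 42.5, 34.5 and 27.4 CPM of Stat2 and 18.4, 18.5 and 24.5 CPM of Rnf213, which overlapped NestinCre EAE for Stat2 (31.8 to 41.8 CPM) and for Rnf213 (20.5 to 28.0 CPM). Herc6, at 3.44, 5.11 and 3.42 CPM, and Irgm1, at 2.30, 4.48 and 3.42 CPM, lay below NestinCre EAE, as did Irf9 at 9.57, 14.1 and 12.6 CPM.

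The filter on counts left out H2-K1, a heavy chain gene of MHC class I (chr17:34214987-34219321, minus strand, GRCm39). It stood at 0.716, 0.938, 1.76 and 0 CPM in fl EAE 1 to 4 and at 13.1, 9.11, 4.54 and 22.8 CPM in NestinCre EAE 1 to 4. The naive libraries held 0, 1.92 and 0 CPM. The EAE groups did not overlap. Without the filter 20141 genes were tested and 50 were called (0.248%, edgeR), 30 higher and 20 lower in NestinCre EAE. The 50 included 11 genes of the interferon lists, all higher, among them B2m, H2-K1, Herc6, Oasl2, the GTPase genes Igtp, Iigp1 and Irgm2, and the MHC class II genes Cd74, H2-Aa and H2-Ab1.

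**Figure D3:**
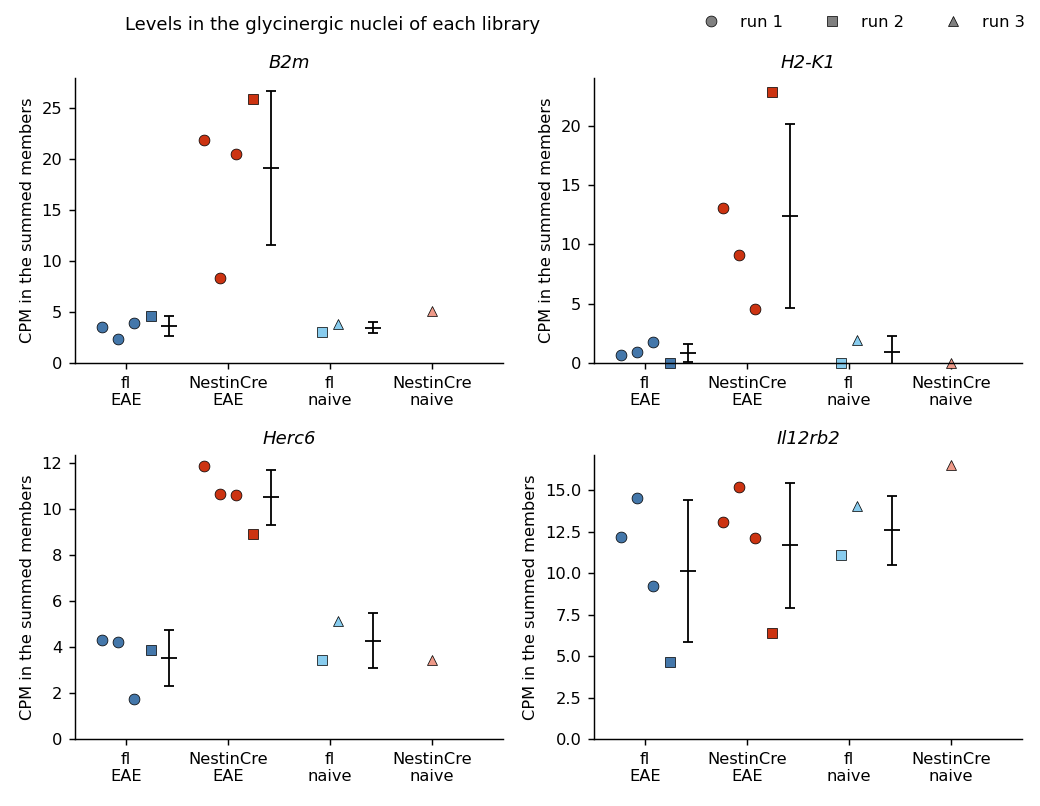
CPM of B2m, H2-K1, Herc6 and Il12rb2 (vertical axes, each starting at 0) in the summed glycinergic nuclei of each library, by group; symbols give the sequencing run and bars the mean ± SD where a group has more than 1 library. The NestinCre EAE libraries lie above all others for B2m, H2-K1 and Herc6, whereas the groups overlap for Il12rb2.

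Transcripts of immune cells moved with genotype in the same nuclei. C1qa and Lyz2, genes of microglia and other phagocytes, were also among the 50 calls. UMIs of any of 9 immune genes (Ptprc, Cd74, Lyz2, C1qa, C1qb, C1qc, Ctss, H2-Aa and H2-Ab1) were present in 7.96%, 7.93%, 16.8% and 6.25% of the members in fl EAE 1 to 4. The shares were 50.8%, 24.5%, 41.5% and 42.6% in NestinCre EAE 1 to 4 and 5.80% to 7.38% in the naive libraries. The 9 genes summed to 7.16 to 17.6 CPM in the members of fl EAE and to 35.7 to 63.6 CPM in those of NestinCre EAE. In all other nuclei, immune cells included, they summed to 24.9 to 66.3 and to 166 to 256 CPM. The full list of microglia and macrophage markers summed to 182 to 195 CPM in the members of fl EAE and to 183 to 216 CPM in those of NestinCre EAE.

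Levels were also taken in the 1240 members without a UMI of the 9 genes, a choice made after seeing the data. This choice removes more nuclei from NestinCre EAE than from fl EAE by the shares just given, 3 of its genes (Cd74, H2-Aa and H2-Ab1) belong to the interferon lists, and it does not remove free B2m or H2-K1 transcripts from the nuclei kept. The part of immune cell transcripts in the result was therefore not tested. In these nuclei B2m stood at 3.08, 2.61, 4.45 and 5.05 CPM in fl EAE and at 24.0, 7.99, 12.4 and 24.8 CPM in NestinCre EAE. H2-K1 stood at 0.771, 0.522, 1.67 and 0 against 19.7, 7.99, 6.18 and 24.3 CPM. The groups did not overlap for either gene. Herc6 stood at 4.62, 3.65, 1.67 and 4.21 against 4.23, 7.99, 13.6 and 7.30 CPM, and its groups overlapped. With fewer nuclei edgeR called 0 of 10486 genes, with 569 at an unadjusted p under 0.05. B2m fell below the filter on counts there and could not be tested.

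**Figure D4:**
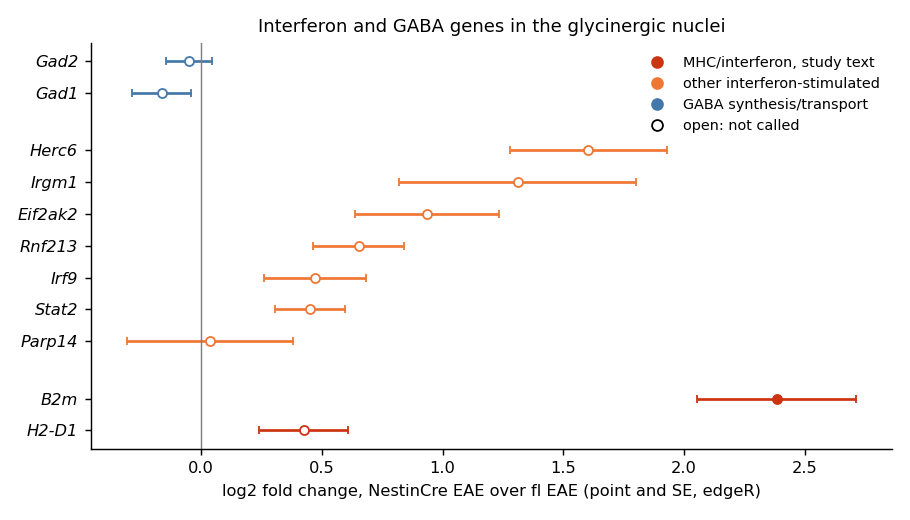
Log2 fold changes of NestinCre EAE over fl EAE (horizontal axis, point and SE from edgeR) for genes of 3 lists that the text names, in the glycinergic nuclei; the filled point passed the threshold. B2m is the filled point, the genes of the further interferon list lie above 0 without a call, and Gad1 and Gad2 lie just below 0.

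Levels of 3 interferon genes, chosen because they were higher in the members as a whole, are given by sub-cluster as a description. With libraries of a genotype summed, B2m was higher in 14 and lower in 1, H2-K1 was higher in all 17, and Herc6 was higher in 14 and lower in 2. In sub-cluster 1, the largest, B2m stood at 7.37 CPM in fl EAE and 21.8 CPM in NestinCre EAE, from 6 and 20 UMIs. In sub-cluster 4 it stood at 2.91 and 12.9 CPM, from 2 and 11 UMIs. In fl EAE no UMI was found in 5 of the 17 sub-clusters for B2m, in 12 for H2-K1 and in 5 for Herc6, and the NestinCre EAE sums of H2-K1 held 1 to 18 UMIs, so many of these directions rest on a few UMIs against 0. These are sums without replicate error. Without sub-clusters 2 and 17, edgeR called 3 genes, all higher.

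Genes of glycinergic and GABA transmission showed no call. None of the 6 tested genes of glycine release and uptake passed, and Slc32a1 had a log2 fold change of -0.01 (edgeR adjusted p = 0.999). The 8 tested genes of GABA synthesis and transport were all below 0, with a median of -0.11 and a range of -0.16 to -0.04, and none passed. Over all genes tested, 50.6% were above 0. Gad1 stood at 98.1 CPM in fl EAE and 88.6 CPM in NestinCre EAE on average. The library fl EAE 4 stood apart from the rest of its group at 124 CPM of Gad1. None of 19 glycine and GABA-A receptor genes passed, with Glra1 at a log2 fold change of -0.04 and SE 0.0781, Glrb at 0.12 and Gphn at -0.01. Slc6a9, which encodes the other plasma membrane glycine transporter, had an estimate of -0.38 with SE 0.230.

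The remaining lists of neuronal genes gave estimates and no calls. Of 23 excitatory receptor genes, 15 were below 0, and the lowest p belonged to Grm4 (56.4 and 39.0 CPM, log2 fold change -0.53, edgeR adjusted p = 0.747). Among 33 ion channel genes, Kcnq5 had the lowest p (545 and 429 CPM, -0.33). Of 29 transcription factor genes, Rorb (149 and 86.9 CPM, -0.75) and Ebf1 (463 and 338 CPM, -0.42) had the lowest p, and both were leading genes of a sub-cluster. Sub-cluster 5, with Ebf1 among its leading genes, made up 8.85%, 11.6%, 8.38% and 5% of the fl EAE members and 8.47%, 7.55%, 7.55% and 6.79% of the NestinCre EAE members, which overlapped. Sub-cluster 11, which led with Rorb, made up 11.5%, 5.49%, 4.79% and 10.0% of the members in fl EAE and 5.08%, 3.77%, 4.72% and 3.40% in NestinCre EAE, where the groups overlapped through NestinCre EAE 1. Hapln1 and Bcan of the perineuronal net had estimates of 0.72 and 0.29.

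Among stress and signalling genes, Stat3 (37.8 and 56.2 CPM, log2 fold change 0.57, edgeR adjusted p = 0.601) and the metallothionein genes Mt1 (33.6 and 59.1 CPM, 0.78) and Mt2 (5.78 and 12.9 CPM, 1.12) had the lowest p of their lists and were not called. Of 14 tested genes of neuronal injury and stress, 11 were below 0, 4 of them at an unadjusted p under 0.05, and none was called. Over all 11063 genes tested, 2.59% were lower at an unadjusted p under 0.05. The median log2 fold change of the 14 genes was -0.24, against 0.00 over all genes tested. The lowest p belonged to Gap43, a growth cone protein gene, at 109, 95.2, 114 and 111 CPM in the fl EAE libraries and 79.8, 79.7, 101 and 94.9 CPM in those of NestinCre EAE (log2 fold change -0.28, edgeR adjusted p = 0.893), and to Stmn2, a microtubule regulator gene of neurons (232 and 205 CPM on average, -0.19, edgeR adjusted p = 0.948). Both genes overlapped between the groups. The list of neuronal genes named in the study's text was chosen on these samples. It had 22 tested genes, 14 of them below 0, and none called. In 2 of the 22 all NestinCre EAE libraries lay below all fl EAE libraries, and in 0 above. Over all genes tested this occurred in 1.16% and in 1.37%. The list's direction is not independent evidence. Csgalnact1, an enzyme gene of chondroitin sulfate synthesis, had the next lowest p after Herc6 over all genes (41.5 and 66.1 CPM, 0.65, edgeR adjusted p = 0.276).

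The targeted gene was not lower. Il12rb2 (chr6:67268302-67353172, minus strand, GRCm39) stood at 12.2, 14.5, 9.22 and 4.64 CPM in fl EAE 1 to 4 and at 13.1, 15.2, 12.1 and 6.40 CPM in NestinCre EAE 1 to 4. The naive libraries held 11.1, 14.1 and 16.5 CPM. The groups overlapped, with a log2 fold change of 0.22 and SE 0.252 (edgeR adjusted p = 0.977), and over all alternatives the estimate lay between 0.05 and 0.43. The counts span the whole gene, introns included, so they do not check the loxP-flanked part and leave the genotype labels unchecked. Il12rb1, the other receptor chain, averaged 0.267 CPM and Nes 0.0941 CPM in the members.

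The third comparison asked whether the genotype effect in these nuclei differed from that in other nuclei of the same libraries. Each library gave a pair of sums, and the interaction of class with genotype was tested in the 8 EAE libraries. Against the Golgi gate 0 of 11395 genes were called by edgeR, with 427 at an unadjusted p under 0.05, and DESeq2 also called 0. B2m averaged 5.46 ± 2.55 and 15.01 ± 5.11 CPM in the Golgi gate of fl EAE and NestinCre EAE (SD, n = 4 each). Herc6 averaged 2.95 ± 1.92 and 8.55 ± 2.69 CPM there, against 3.53 ± 1.20 and 10.5 ± 1.20 CPM in the members. A difference between the members and the Golgi gate was thus not detected at this depth, with 32 nuclei of the gate in NestinCre EAE 2, the fewest, and 145 in NestinCre EAE 4, the most. Of these, 14 and 52 held Tfap2b, so a large part of the gate lacks this gene as the members do, and its mean Hox sum lay in the members' range. With Tfap2b required as well, an alternative chosen after seeing the data, edgeR called 0 of 10854 genes, with 387 at an unadjusted p under 0.05.

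Against all other nuclei 3 of 17408 genes were called (0.0172%, edgeR adjusted p = 0.0435 for each), 1 with the higher effect in the members (0.00574%) and 2 with the lower (0.0115%). Parp14, an interferon-induced gene, averaged 7.44 ± 1.78 and 7.67 ± 3.74 CPM in the members of fl EAE and NestinCre EAE, and 3.47 ± 1.93 and 20.4 ± 6.40 CPM in all other nuclei. The difference between the effects was -2.43 on the log2 scale. Dock2, a gene of leukocytes, averaged 47.1 and 40.9 CPM in the members and 28.4 and 52.2 CPM in all other nuclei. Its difference of effects was -1.03. All other nuclei are a pool of many cell types, immune cells included. The paper reports more resident and infiltrating mononuclear phagocytes in the NestinCre mice. A shift in the make-up of the pool and a change within its cells cannot be told apart here. Among the members the mean of Parp14 was about equal in both genotypes and that of Dock2 was lower in NestinCre EAE, whereas both means were higher in NestinCre EAE among all other nuclei. In the Golgi gate Dock2 averaged 51.8 ± 13.7 and 44.4 ± 8.79 CPM and Parp14 7.94 ± 7.80 and 9.51 ± 7.19 CPM, with ratios of NestinCre EAE over fl EAE of 0.857 and 1.20, against 0.867 and 1.03 in the members.

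Itpr1, a calcium channel gene abundant in Purkinje cells, averaged 85.3 ± 22.6 and 152 ± 81.8 CPM in the members and 280 and 236 CPM in all other nuclei, a difference of 1.03. NestinCre EAE 2 alone held 269 CPM. Without sub-clusters 2 and 17 the members averaged 71.5 and 83.2 CPM and the difference was 0.48 (edgeR adjusted p = 0.548). Dock2 and Parp14 also lost their calls there, with differences of -0.99 and -2.40 that stayed close to those in all members (edgeR adjusted p = 0.0755 and 0.0779). Leaving out fl EAE 1, 2 or 4 or NestinCre EAE 3 also gave 0 calls, whereas leaving out fl EAE 3 gave 29 and NestinCre EAE 4 gave 6. DESeq2 called 2 genes, Dock2 and Parp14. B2m was not called in this comparison and averaged 10.1 and 67.7 CPM in all other nuclei.

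**Figure D5:**
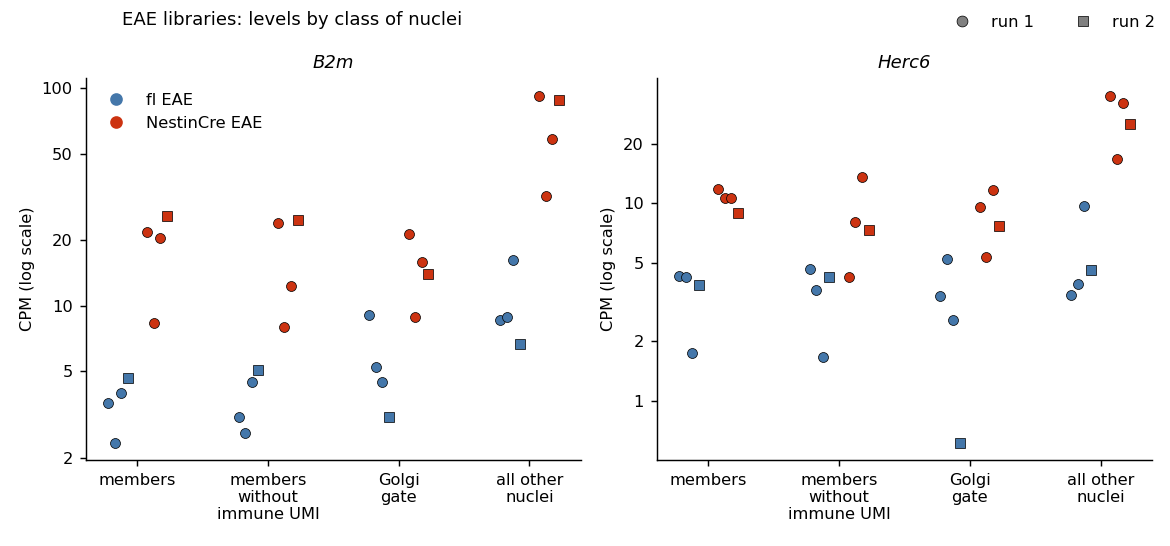
B2m and Herc6 (vertical axes, CPM on a log scale) in the 8 EAE libraries, for the glycinergic members, the members without an immune gene UMI, the Golgi gate and all other nuclei; blue is fl EAE, red is NestinCre EAE and symbols give the run. The NestinCre EAE libraries lie above the fl EAE libraries for both genes in the members and in all other nuclei, the Golgi gate shows an overlap for B2m, and the members without an immune gene UMI show one for Herc6.

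The fourth comparison set EAE against the naive state over both genotypes, in 1 fit of all 11 libraries in which the single NestinCre naive library was assumed to vary like the others. The contrast rests on run 2, in which EAE and naive libraries were sequenced together. Of 12742 genes 1 was called (0.00785%, edgeR), and DESeq2 called 1. It was Trim43c (chr9:88721217-88730243, plus strand, GRCm39), a member of a family of near-identical genes, so its counts are uncertain. Trim43c stood at 68.8, 101, 65.4 and 52.6 CPM in fl EAE 1 to 4, at 87.2, 93.4, 76.5 and 59.3 CPM in NestinCre EAE 1 to 4, and at 110 CPM in fl naive 2, 42.8 CPM in fl naive 3 and 96.4 CPM in NestinCre naive 2. The groups overlapped, and the fitted log2 fold change of -1.62 (SE 0.248, edgeR adjusted p = 0.0268) was -0.18 without the run term (adjusted p = 0.820) and lost its call without NestinCre EAE 2 (adjusted p = 0.0735). Without fl EAE 4 there were 17 calls, and without NestinCre EAE 4 there were 16. Fitted in fl mice alone there were 0 calls, and without the run term 5.

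Fgf1, a fibroblast growth factor gene, had the next lowest p and was not called (edgeR adjusted p = 0.118). It averaged 172 and 167 CPM in fl EAE and NestinCre EAE and 263 and 261 CPM in fl naive and NestinCre naive. Its level was 331 CPM in fl naive 2 and 194 CPM in fl naive 3, which lay within the EAE range of 148 to 206 CPM, so the groups overlapped. Scg2, Selenom and Cbarp followed, with fitted log2 fold changes of 1.57, 1.30 and 1.57 and an edgeR adjusted p of 0.173 each. Scg2 stood at 42.6 to 68.0 CPM in the EAE libraries and at 22.6 CPM in fl naive 2, 79.3 CPM in fl naive 3 and 44.5 CPM in NestinCre naive 2. Selenom stood at 50.7 to 75.0 CPM and at 26.4, 76.7 and 55.3 CPM, and Cbarp at 23.7 to 50.7 CPM and at 20.3, 36.4 and 22.2 CPM in the same order. The groups overlapped for Scg2 and Selenom, with fl naive 2 below and fl naive 3 above all EAE libraries, and the fitted folds set EAE against fl naive 2 within run 2. For Cbarp fl naive 3 lay within the EAE range. Of 17 tested immediate early genes all estimates were above 0 and none was called, among them Dusp1 (means of 10.3, 11.1, 5.43 and 6.28 CPM in the fl and NestinCre mice with EAE and the fl and NestinCre naive mice) and Junb (9.99, 12.7, 11.1 and 6.85 CPM). In fl mice alone the means were thus lower in EAE for Junb, and those of Egr1 were 12.0 CPM in EAE and 12.3 CPM in naive mice. The glucocorticoid-responsive gene Per1 stood at 14.3, 11.7, 6.58 and 20.9 CPM in the fl EAE libraries, at 23.1, 15.2, 13.6 and 15.6 CPM in those of NestinCre EAE and at 3.83, 15.3 and 7.42 CPM in the naive libraries, which overlapped EAE. Its fitted log2 fold change was 2.59 (edgeR adjusted p = 0.247). B2m was not called here, at 1.57.

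Between genotypes in naive mice, where NestinCre naive is a single library, edgeR called 0 of 12742 genes, with 755 at an unadjusted p under 0.05, and DESeq2 called 1. B2m stood at 3.06 and 3.84 against 5.13 CPM, with a fitted log2 fold change of 0.47 (edgeR adjusted p = 0.972). The test of whether the genotype effect differed between EAE and naive mice called 0 of 12742 genes by edgeR and by DESeq2, with 668 at an unadjusted p under 0.05 in edgeR. The difference of effects was 1.91 for B2m (SE 0.960). The genotype effect on B2m was thus called in EAE, and a difference between EAE and naive mice was not shown. All 17 tested immediate early genes had estimates below 0 in the naive comparison, with Egr1 at 2.28 CPM in NestinCre naive against 12.3 CPM on average in fl naive (edgeR adjusted p = 0.719). These estimates and those of EAE against naive share the single NestinCre naive library and are not separate evidence.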

How the data were processed

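Single-nucleus RNA of 11 libraries (10x 3' chemistry, Hoechst-sorted nuclei, no doublet exclusion at the sort) was analysed from the deposited matrices of UMI counts per gene and barcode. Per the file headers the authors made these counts with Cell Ranger 7.0.0 or 6.0.2 on GRCm39, introns included and cells called by the software, whereas the submitters' processing notes name 6.0.2. Intron counting raises the counts of long genes. Nuclei were gated as described in the report, and the members and gene lists were chosen with earlier results of these data known. Coordinates came from GENCODE on GRCm39.

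Member counts were summed per library and tested with edgeR 4.0.16 (R 4.3.3; TMM scaling, filterByExpr, quasi-likelihood test, run as a term, Benjamini-Hochberg 0.05), with DESeq2 1.42.0 as an alternative. Library totals of member counts were 1293980 to 3591543. Class differences were tested as class by genotype interactions with library as a block. Shares used two-sided exact permutation and Clopper-Pearson 95% intervals (scipy 1.17.1). Clusters used scanpy 1.11.5 (2000 variable genes, 20 components, 15 neighbours, Leiden resolution 1), doublet scores Scrublet with 0.8% doublets expected per 1000 barcodes. On simulated counts of 11063 genes for genotype in EAE, 89% of 100 genes at log2 fold 1 and 97% of 100 at log2 fold 2 were recovered, with 8 false calls. The counts were drawn without a run effect and with the spread estimated from these samples, and all these genes were changed at once. The recovered shares thus do not show which changes the comparison of the real libraries could miss. The EAE libraries are separate mice per the methods. The naive libraries of run 3 are described there as 1 mouse of each genotype, and fl naive 2 as a control for batch effects between runs. The authors left all 3 out of their own analysis.

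Named genes were 11 genes of transmission and IL-12 sensing in every comparison. Of each list up to 5 called genes were named, or 2 with the lowest p. Outside the lists up to 8 called genes per direction were named, or the 5 lowest p where fewer than 3 were called. Classes were described by the 6 largest ratios per direction at 50 CPM or more, and sub-clusters by 4 leading genes. Other gene names were chosen after their values were seen. Alternatives were DESeq2, RLE scaling, no filter on counts, a stricter Slc6a5 limit, nuclei without high doublet scores, nuclei under 6000 UMIs, no run term, run 1 alone, the replicate block and leaving out each EAE library. The removal of sub-clusters 2 and 17, of nuclei with immune UMIs, and the Tfap2b requirement for Golgi nuclei were added after seeing the data. Some genes are not reported here.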

Additional observations from a re-analysis of the deposited data

Results flagged for a closer look

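In 46 groups of 4 libraries checked for a library apart from the others, 3 stood out, where chance gives about 5% of groups. Among the 4 fl EAE libraries Slc32a1 was lowest in fl EAE 3 at 33.4 CPM, Gad1 was highest in fl EAE 4 at 124 CPM, and Herc6 was lowest in fl EAE 3 at 1.76 CPM. For Slc32a1, 3 libraries of other groups lay lower, down to 26.8 CPM in NestinCre EAE 1. The library fl EAE 4 also held the largest share of sub-cluster 13, in which Gad1 stood at 177 CPM.

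The effect of genotype in EAE differed between the glycinergic nuclei and all other nuclei, a pool of many cell types, for 3 genes (edgeR adjusted p = 0.0435 each). The difference of log2 fold changes was -1.03 for Dock2, 1.03 for Itpr1 and -2.43 for Parp14. Without sub-clusters 2 and 17, an alternative chosen after seeing the data, the difference of Itpr1 shrank to 0.48 (edgeR adjusted p = 0.548). Those of Dock2 and Parp14 stayed close, at -0.99 and -2.40, and no longer passed (edgeR adjusted p = 0.0755 and 0.0779).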

How the results depend on the processing

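B2m kept its direction and its call in the 17 alternatives in which it could be tested. Without the filter on counts the numbers of called genes were 50 for genotype in EAE, 79 for EAE against naive, 24 for genotype in naive mice, 20 for the interaction, 13 against the Golgi gate and 34 against all other nuclei. With nuclei under 6000 UMIs the counts were 0 for genotype in EAE, with 1085 genes tested, and 0 for EAE against naive, with 2508. Without nuclei holding an immune UMI both counts were 0. Without sub-clusters 2 and 17 the count against all other nuclei was 0. For EAE against naive, at least 3 Slc6a5 UMIs gave 0, fl mice alone 0 and no run term 5. DESeq2 gave 1 for genotype in naive mice. Leaving out 1 library gave 2 to 5 calls for genotype in EAE (5 without NestinCre EAE 3), 0 to 17 for EAE against naive, 0 to 0 for genotype in naive mice and for the interaction, 0 to 1 against the Golgi gate and 0 to 29 against all other nuclei. The genotype difference in share was 0.00436 to 0.235 points over single omissions and -0.106 in run 1 alone. The EAE difference was -0.0930 to 0.152 over single omissions (0.0121 without fl EAE 1, 0.0748 without fl EAE 4, 0.00636 and 0.0153 without NestinCre EAE 1 and 2, 0.152 without fl naive 2) and 0.0149 after thinning. The causes were not tested.

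EAE libraries of the same replicate number, 1 to 3, had correlations of deviations of -0.0291, 0.0397 and -0.00315. With so few libraries these values do not settle whether the libraries were paired. With the replicate block 2 genes were called for genotype in EAE. The share differed by 0.154 points (exact sign-flip permutation over 16 assignments, p = 0.875, smallest possible p 0.125). Low depth limits genes such as H2-K1, and the naive comparisons rest on 3 libraries.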
